A study of Mus musculus with 69 samples.

Results

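The genes followed here belong to creatine, arginine and polyamine metabolism in the kidney: Gatm, Gamt, Ass1, Asl, Arg2, Odc1, Amd1, Srm and Sat1. These 9 were taken by symbol from the 24523 symbols that had at least 1 count in any library. All 9 members were present, and 7 of the 9 had enough reads to be tested. The 65 original libraries came from perfused whole kidneys of NZB/W F1 mice, a cross that develops spontaneous lupus nephritis, and the mice were female. The labels name no transgene or deletion. The 30 young mice were 12 weeks old and untreated. The 27 nephritic mice were untreated, 30 to 45 weeks old, and were taken 2 to 3 weeks after proteinuria passed 300 mg/dl. The 8 remission mice had been nephritic and, at 36 to 50 weeks of age, had received cyclophosphamide at 50 mg/kg once with 6 doses each of CTLA4Ig (200 ug) and anti-CD40L (250 ug). Their kidneys were taken 8 weeks later. Kidneys of young and nephritic mice were collected at Zeitgeber time (ZT, hours after lights on) 0, 4, 8, 12, 16 and 20, with 3 to 7 mice per group and time, and those of remission mice at ZT0 and ZT12, with 4 mice each. Age and disease cannot be told apart in any comparison with young mice, nor can treatment and remission.

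The kidney makes the precursor of creatine. Gatm, a mitochondrial enzyme of the proximal tubule, joins arginine and glycine to guanidinoacetate, and Gamt methylates guanidinoacetate to creatine, which muscle and brain use as an energy reserve. The proximal tubule also makes arginine for the rest of the body from citrulline, by Ass1 and then Asl, and Arg2 splits arginine to urea and ornithine in mitochondria. Odc1 turns ornithine into putrescine, the entry to the polyamines, which growing cells need. Srm adds an aminopropyl group supplied by Amd1 to make spermidine, and Sat1 acetylates spermidine and spermine for export or breakdown.

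Ass1 and Amd1 could not be followed. Ass1 was listed at 0 to 6 counts per library, with 34 counts summed over the 30 young mice, 34 over the 27 nephritic and 5 over the 8 remission mice. Amd1 was listed at 0 in 63 of 65 libraries and at 1 count in the other 2. Both genes have near copies in the mouse genome, and the authors counted reads that aligned to 1 place only. Of all stretches of read length (150 bases) in the main Ass1 transcript (chr2:31470207-31520672, plus strand, GRCm38), 68.6% were found with at most 2 mismatches in the processed pseudogene Gm5424 (chr10:62071123-62072362). Of those in Amd1 (chr10:40287458-40302186, minus strand), 92.6% were found in Amd2 (chr10:35708675-35711892), which has a single exon. The following coding stretches show how alike the copies are. Differing bases are in capitals, and the first pair is shown for Ass1 and the second for Amd1.
Ass1, coding bases 280 to 429, exons within chr2:31481080-31488586, plus strand: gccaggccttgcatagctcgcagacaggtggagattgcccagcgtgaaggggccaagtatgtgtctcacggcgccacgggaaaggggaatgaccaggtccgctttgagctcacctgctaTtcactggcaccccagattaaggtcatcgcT
Gm5424: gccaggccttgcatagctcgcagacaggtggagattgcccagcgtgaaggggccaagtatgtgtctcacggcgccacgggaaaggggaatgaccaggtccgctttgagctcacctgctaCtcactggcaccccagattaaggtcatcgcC
Amd1, coding bases 647 to 796, exons within chr10:40290186-40290439, minus strand: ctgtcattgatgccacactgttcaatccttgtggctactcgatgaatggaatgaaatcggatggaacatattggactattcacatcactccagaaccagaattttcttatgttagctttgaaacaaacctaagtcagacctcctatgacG
Amd2: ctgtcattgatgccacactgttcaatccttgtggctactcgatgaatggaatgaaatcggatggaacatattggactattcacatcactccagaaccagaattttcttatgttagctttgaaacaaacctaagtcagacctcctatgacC
Counted from 1 at the 5′ end of each stretch, the differences were T120C and T150C from Ass1 to Gm5424 and G150C from Amd1 to Amd2. Amd2 and the antizyme gene Oaz1, with 92.2% and 43.6% of stretches shared, failed the count minimum as well. Odc1 shared 40.6% of its stretches with other genes and was counted abundantly. In Gatm, Gamt, Asl and Srm no stretch was shared, and in Arg2 and Sat1 10.6% and 6.6% were. The 10.6% of Arg2 lie in Vti1b, which overlaps it on the other strand, and no source used here says whether counting used the strand. Whether the near copies set the counts of Ass1 and Amd1 was not tested.

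Per kilobase of transcript, Gatm was the most abundant of the 7 genes in young kidneys, at 478 ± 162 (SD, n = 30) CPM (counts scaled to a common library size) per kilobase. Sat1 (259 ± 32.4) and Odc1 (252 ± 52.9) followed at levels that overlapped, then Asl (125 ± 23.1) and Gamt (46.9 ± 16.6). Srm (14.2 ± 1.59) and Arg2 (12.9 ± 6.63) were lowest, and their SDs overlapped too. In nephritic kidneys Sat1 (319 ± 67.1, n = 27) and Gatm (279 ± 139) overlapped at the top. In remission kidneys Gatm (266 ± 88.1, n = 8) came before Sat1 (197 ± 33.1) and Odc1 (188 ± 25.3), within the spread of the mice.

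Gatm, Gamt, Asl and Odc1 were lower in nephritic than in young kidneys, Sat1 and Srm were higher, and Arg2 was not called. Of the 7 genes tested, 4 fell and 2 rose (edgeR quasi-likelihood test with time of day and sequencing set in the fit, adjusted p at most 0.05 over all genes). Over all 17521 genes tested, 62.1% passed this threshold, 33.9% lower and 28.1% higher, so a call by itself sets no gene apart. The median change was -0.58 log2 units over the 7 genes and -0.03 over all genes. In whole-kidney RNA, fewer cells of a type and less RNA per cell cannot be told apart.

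Gatm, arginine:glycine amidinotransferase (chr2:122594467-122611303, minus strand), was at 493 CPM in the lowest young mouse, 1103 at the median and 1976 in the highest. Nephritic mice ran from 155 through a median of 680 to 1365 CPM. The groups overlapped, with 7 nephritic mice under the lowest young mouse and 23 of 27 under the young median. Gatm fell by 0.87 ± 0.14 log2 units (SE, adjusted p = 2.66e-07, edgeR). Gamt, the methyltransferase that completes creatine (chr10:80258151-80261012, minus strand), ran from 19.2 through 42.7 to 97.6 CPM in young and from 10.1 through 27.6 to 50.8 CPM in nephritic mice. Here 6 nephritic mice lay under the young range and none above it. Gamt fell by 0.75 ± 0.12 log2 units (adjusted p = 5.52e-07, edgeR).

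Asl, argininosuccinate lyase, which releases arginine (chr5:130011258-130029247, minus strand), ran from 210 through 295 to 431 CPM in young mice and from 91.4 through 214 to 347 CPM in nephritic mice. Only 1 nephritic mouse was above the young median, and 12 were under the young range. Asl fell by 0.58 ± 0.08 log2 units (adjusted p = 5.96e-09, edgeR). Odc1, ornithine decarboxylase (chr12:17544794-17551505, plus strand), ran from 378 through 543 to 823 CPM in young mice and from 203 through 374 to 653 CPM in nephritic mice. Of the 27 nephritic mice, 14 were under the young range and 26 under the young median. Odc1 fell by 0.58 ± 0.06 log2 units (adjusted p = 1.6e-11, edgeR).

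Sat1, the acetyltransferase of polyamine breakdown (chrX:155213132-155216449, minus strand), moved the other way. It ran from 242 through 294 to 403 CPM in young mice and from 272 through 358 to 547 CPM in nephritic mice. None of the nephritic mice was under the young range and 8 were above it. Sat1 rose by 0.28 ± 0.06 log2 units (adjusted p = 2.06e-05, edgeR). Srm, spermidine synthase (chr4:148591503-148594993, plus strand), spanned 15.5 to 23.6 CPM in young and 16.8 to 31.3 CPM in nephritic mice, with medians of 18.9 and 20.1. It rose by 0.12 ± 0.05 log2 units (adjusted p = 0.0453, edgeR), a call that was lost in Set 2 alone (0.05, adjusted p = 0.348), with limma (adjusted p = 0.0518), with repeat libraries (adjusted p = 0.15) and on leaving out any of 7 mice, named in the closing section. Arg2, mitochondrial arginase (chr12:79130777-79156301, plus strand), spanned 3.74 to 38.8 CPM in young and 6.85 to 41.1 CPM in nephritic mice, with medians of 17.3 and 21.1. Its difference of 0.23 ± 0.19 log2 units did not pass (adjusted p = 0.283, edgeR), but in Set 2 alone it was 0.59 ± 0.18 (adjusted p = 0.00659). Set 2 is the larger of 2 sequencing sets, and Set 1 holds 6 young and 5 nephritic mice, all at ZT0 or ZT12. In Set 1 at ZT0 every nephritic mouse had less Arg2 than every young mouse, as given with the times of day below. At ZT12 the Arg2 difference was -0.0055 ± 0.35 log2 units with both sets and 0.48 ± 0.33 in Set 2 alone, neither called. The set covariate shifts both groups alike and cannot absorb opposite directions. The 0.23 thus averages sets that disagreed at ZT0, and no direction is drawn from it.

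**Figure D1:**
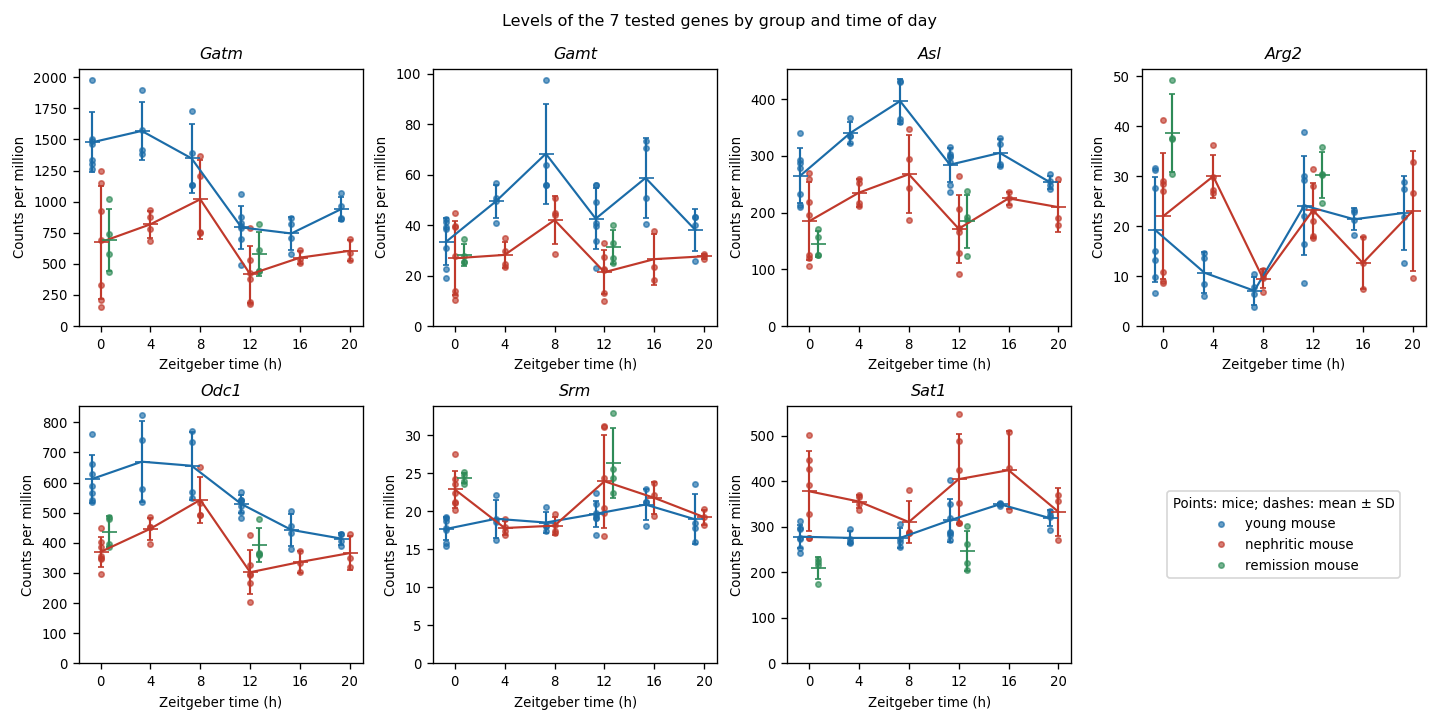
CPM (vertical axes, from 0) of the 7 tested genes against Zeitgeber time in hours, with 1 point per mouse and dashes and bars for mean ± SD in young, nephritic and remission mice (3 to 7 mice per group and time). Gatm, Gamt, Asl and Odc1 lie lower in nephritic than in young mice at most times, Sat1 lies higher, and remission mice have the lowest mean of Sat1 at ZT0 and ZT12.

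Of these genes 4 moved with markers of the proximal tubule. Among the 27 nephritic mice Gatm (Pearson's r = 0.90), Gamt (0.91), Asl (0.91) and Odc1 (0.65) rose with the summed level of the marker list. Sat1 (-0.78) and Srm (-0.75) ran opposite to that sum, and Arg2 (-0.13, permutation p = 0.52) showed no clear relation. All 12 markers of the list fell in nephritic mice (median -0.75 log2 units), and their summed level ran from 16771 to 25194 CPM in young mice and from 3094 to 19722 CPM in nephritic mice. No marker of the list was at 0 in any library. Slc7a13 was lowest, at 0.211 CPM in its lowest library, and the other 11 had at least 66.3 CPM in theirs. Of the other lists, 1 of 8 distal nephron markers rose and 3 fell, 5 of 7 adrenal markers fell, and none of 5 adipocyte markers was called. The adrenal sum had a median of 6.34 CPM in young and 5.48 CPM in nephritic mice, with the highest mouse at 1646 and 1087 CPM. All 12 leukocyte markers and all 7 tubular injury markers rose, and the median leukocyte sum was 67.1 CPM in young and 583 CPM in nephritic mice. The leukocyte sums of the groups did not overlap, at 38.6 to 114 CPM in young and 139 to 3681 CPM in nephritic mice. The part of these markers in the changes of the 7 genes was not tested beyond the fits that follow. With the proximal tubule sum as a covariate, Gamt (-0.37 ± 0.13, adjusted p = 0.0228), Asl (-0.25 ± 0.06, adjusted p = 0.00291) and Odc1 (-0.38 ± 0.07, adjusted p = 1.74e-05) were still called lower by edgeR. Gatm was not (-0.25 ± 0.11, adjusted p = 0.0729), nor were Sat1 (0.04 ± 0.06) and Srm (-0.08 ± 0.06). In this fit 27.8% of all genes were called. The proximal tubule sum itself differed with group, at a median of 20501 CPM in young and 13561 CPM in nephritic mice. The fit thus cannot fully tell tubule content from group, and no conclusion is drawn from the kept or lost calls. With both the proximal tubule and the leukocyte sums none of the 7 was called (edgeR), 1 had an unadjusted p under 0.05 (Gatm, -0.68 ± 0.23), and over all genes 131 were called. Because the leukocyte sum separates young from nephritic mice, this fit cannot tell leukocyte content from group, and no conclusion is drawn from the lost calls.

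**Figure D2:**
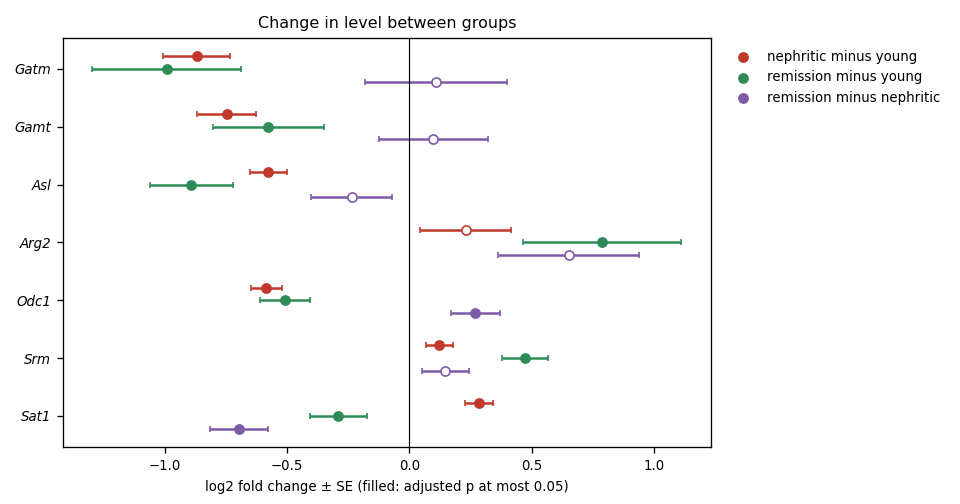
Log2 fold change ± SE (horizontal axis) of the 7 tested genes for nephritic minus young, remission minus young and remission minus nephritic mice, with filled points where the adjusted p is at most 0.05. Gatm, Gamt, Asl and Odc1 are left of 0 in both comparisons with young mice, and Sat1 is right of 0 in nephritic mice and left of 0 in remission mice.

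By time of day, 17 of the 42 differences between nephritic and young mice (7 genes at 6 times) were called. These were 5 genes at ZT0 (39.5% of all genes called), 5 at ZT4 (30.3%), 6 at ZT12 (50.0%) and 1 at ZT16 (17.7%). No gene was called at ZT8 (3.66% of all genes) by edgeR, where 3 had an unadjusted p under 0.05, or at ZT20 (5.48%), where none had. DESeq2 and limma also called 17 of the 42. With both sets of libraries Arg2 was called at ZT4 alone. In Set 2 alone it was called at ZT0 too (1.49 ± 0.34 log2 units, adjusted p = 0.00133, edgeR). The Set 1 mice at ZT0 went the other way, with 27.6 to 31.6 CPM in young and 8.67 to 10.8 CPM in nephritic mice. The young ZT4 mice had 5.96, 8.49, 13.7 and 14.5 CPM of Arg2, and the nephritic ZT4 mice had 26.7, 27.3, 29.8 and 36.1 CPM. The lowest nephritic mouse was above the highest young mouse, and the change was 1.43 ± 0.44 log2 units (adjusted p = 0.0119, edgeR). At ZT8 the young mice had 3.74, 6.35, 7.74 and 10.4 CPM and the nephritic mice 6.85, 9.6, 10.3 and 11.1 CPM, which overlap.

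In young kidneys 6 of the 7 genes varied with time of day (edgeR F test over 6 times), against 39.8% of all 16521 genes tested. Gatm varied most surely (adjusted p = 1.13e-06, edgeR). At ZT4 the young mice had 1385, 1415, 1578 and 1896 CPM and at ZT16 580, 705, 820 and 871 CPM. These times did not overlap, and a fitted 24 h cosine had an amplitude of 0.62 ± 0.06 log2 units (SE) with its peak at ZT3.2. Odc1 (adjusted p = 0.000155) had an amplitude of 0.36 ± 0.05 with its peak at ZT5.2, and Asl (adjusted p = 0.000213) one of 0.25 ± 0.04 at ZT7.5. Gamt (adjusted p = 0.00615) peaked at ZT9.7 with an amplitude of 0.31 ± 0.08. With the set term in the fit, Arg2 and Sat1 were highest in the dark phase, opposite to Gatm. For Arg2 the young Set 1 mice, all at ZT0 or ZT12, had 27.6 to 38.8 CPM. This was above the 18.2 to 23.1 CPM of the ZT16 mice, so its phase depends on the set term. Arg2 (adjusted p = 0.000954) had the widest swing, 0.81 ± 0.15 log2 units, with its peak at ZT17.6, and Sat1 (adjusted p = 0.00682) swung by 0.18 ± 0.04 with its peak at ZT16.2. Srm did not pass (adjusted p = 0.372), and the range of its time means was 0.2 log2 units.

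In nephritic kidneys 2 of the 7 genes passed the same test, against 21.6% of 16872 genes. These were Arg2 (adjusted p = 0.00669) and Odc1 (adjusted p = 0.00951). Odc1 had mean levels of 543 ± 75.6 CPM at ZT8 (n = 4) and 302 ± 73.5 CPM at ZT12 (n = 6), and its amplitude of 0.32 ± 0.08 log2 units with a peak at ZT4.7 lay within the SE of that in young mice. Arg2 had no single daily wave: its means were 30.0 ± 4.33 CPM at ZT4, 9.47 ± 1.85 at ZT8 (n = 4 each) and 23.2 ± 5.52 at ZT12 (n = 6), and the cosine amplitude was 0.21 ± 0.19. With the cosine in place of 6 times neither was called (Odc1 adjusted p = 0.0796, Arg2 0.847). Gatm had a fitted amplitude of 0.44 ± 0.22 with a peak at ZT4.2 and did not pass (adjusted p = 0.234 over 6 times and 0.293 with the cosine, edgeR).

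The time courses of the 2 groups were then compared directly. No member was called for a rhythm that differed between them (edgeR, 5 group by time terms), against 6.27% of 17521 genes. Unadjusted p was under 0.05 for 3 genes, Odc1 (adjusted p = 0.0952), Srm (0.0991) and Arg2 (0.166). DESeq2 called Odc1 (adjusted p = 0.0276) and 12.5% of all genes. Of the 7, limma called none (4.6% of all genes), and Set 2 alone called Arg2 (adjusted p = 0.0152, 9.89% of all genes). Without nephritic ZT12 mouse RX10RL Odc1 was called (adjusted p = 0.0218), and without nephritic ZT12 mouse RX9RL Srm was (adjusted p = 0.046). A loss of rhythm in nephritic mice was thus not shown for any of the 7, although 4 of them (Gatm, Gamt, Asl and Sat1) passed the rhythm test in young mice and not in nephritic mice.

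RefSeq (GRCm38.p6) holds start regions for 6 of the 9 members, and those of 4 tested members are shown because these genes changed in level and varied with time of day in young mice. Each runs up to 250 bases before the RefSeq start and stops where any GENCODE transcript begins. Capitals mark 3 motifs, a nuclear receptor half-site (AGGTCA or TGACCT), a GC box (GGGCGG or CCGCCC) and a CCAAT box (CCAAT or ATTGG).
Gatm, chr2:122611304-122611527, minus strand: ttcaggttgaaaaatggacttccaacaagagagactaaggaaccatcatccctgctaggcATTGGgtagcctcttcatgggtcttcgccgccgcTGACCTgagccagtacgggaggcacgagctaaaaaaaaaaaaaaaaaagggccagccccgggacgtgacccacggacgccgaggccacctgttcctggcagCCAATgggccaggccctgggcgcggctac
Gamt, chr10:80261013-80261262, minus strand: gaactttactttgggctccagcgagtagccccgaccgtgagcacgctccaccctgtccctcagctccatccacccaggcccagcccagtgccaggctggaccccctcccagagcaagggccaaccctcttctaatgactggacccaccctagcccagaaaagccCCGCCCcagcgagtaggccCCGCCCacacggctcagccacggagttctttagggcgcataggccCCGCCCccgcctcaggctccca
Odc1, chr12:17544623-17544793, plus strand: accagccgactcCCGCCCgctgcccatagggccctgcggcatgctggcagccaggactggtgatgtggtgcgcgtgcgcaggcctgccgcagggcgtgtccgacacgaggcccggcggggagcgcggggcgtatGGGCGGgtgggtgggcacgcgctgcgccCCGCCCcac
Sat1, chrX:155216450-155216699, minus strand: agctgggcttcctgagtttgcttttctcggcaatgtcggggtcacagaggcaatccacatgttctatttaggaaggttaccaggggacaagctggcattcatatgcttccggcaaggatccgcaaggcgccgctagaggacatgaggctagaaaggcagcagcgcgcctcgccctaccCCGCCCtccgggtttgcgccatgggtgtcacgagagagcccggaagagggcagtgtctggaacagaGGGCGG
In the whole 250 bases Gatm had a half-site 156 bases and CCAAT boxes 190 and 55 bases before its start. Of all 27025 start regions 13.8% held the half-site and 34.5% a CCAAT box in the same 250 bases. Gamt had 3 GC boxes, Odc1 4 and Sat1 2, a motif that 32.9% of the start regions held. The E-box of the clock factors (CACGTG, in 6.05%) and the D-box (TTATGTAA, TTACATAA or TTACGTAA, in 0.96%), both searched on both strands, were in none of the 4, nor was a TATA box (TATAAA or TTTATA, in 12.97%). Such matches describe the letters in these windows.

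In remission no difference from nephritic mice was detected for the creatine enzymes, and Sat1 was lower than in nephritic mice. The question here was whether treatment brought the levels back. All comparisons with remission used ZT0 and ZT12 mice and averaged the times, and they share the nephritic or young mice of the comparisons above. Of the 7 genes, 2 were called against nephritic mice (37.8% of 16841 genes, 17.1% higher and 20.8% lower), Odc1 higher (0.27 ± 0.10 log2 units, adjusted p = 0.0338) and Sat1 lower (-0.70 ± 0.12, adjusted p = 3.04e-05, edgeR). The median change of the 7 was 0.11 log2 units, and that of all genes -0.02. The Odc1 call was lost on leaving out any of 6 mice (adjusted p up to 0.127), and in Set 2 alone (adjusted p = 0.0726).

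Sat1 stood at 174, 216, 222 and 228 CPM in the ZT0 remission mice and at 205, 220, 261 and 303 CPM in the ZT12 remission mice. Of these 8 mice, 6 were under the lowest young mouse and 7 under the lowest nephritic mouse. Gatm ran from 438 through a median of 593 to 1022 CPM in remission, with all 8 mice under the young median. Its difference from nephritic mice was 0.11 ± 0.29 log2 units (adjusted p = 0.795, edgeR), an SE too wide to show that the groups were alike. Asl ran from 124 through 165 to 237 CPM, with 7 of 8 mice under the young range.

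Against young mice all 7 genes were called in remission, where 41.6% of all genes were (21.1% higher and 20.5% lower). The median change of the 7 was -0.51 log2 units, and that of all genes -0.01. Gatm (-0.99 ± 0.30, adjusted p = 0.00963), Asl (-0.89 ± 0.17, adjusted p = 9.4e-05), Gamt (-0.58 ± 0.23, adjusted p = 0.0397), Odc1 (-0.51 ± 0.10, adjusted p = 0.000203) and Sat1 (-0.29 ± 0.12, adjusted p = 0.0434) were lower (edgeR). Srm was higher by 0.47 ± 0.09 log2 units (adjusted p = 0.000159), with 7 of 8 remission mice above the young range. Arg2 was higher by 0.79 ± 0.32 (adjusted p = 0.0492, edgeR), with 8 of 8 remission mice above the young median. All 8 remission mice belong to Set 2. In Set 2 alone Arg2 was higher by 1.28 ± 0.19 log2 units (adjusted p = 2.3e-05, edgeR), where 40.8% of all genes were called. The 0.79 and the fits that follow in this paragraph also hold the Set 1 mice. One remission mouse labelled ZT12, s9, had 27.3 CPM of the clock gene Arntl, where remission mice at ZT0 had 22.9 to 28.9 CPM and the other ZT12 remission mice had 3.24 to 4.93 CPM. Without s9, 4 of the 7 were called (38.7% of all genes), and Gamt (adjusted p = 0.0769), Arg2 (0.0814) and Sat1 (0.0988) were not. Each of these 3 calls was also lost on leaving out single mice named in the closing section, with an adjusted p up to 0.109. With no set covariate Gamt was not called (-0.34 ± 0.24, adjusted p = 0.271).

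The remission libraries were smaller than the others, with 13311278 to 21849912 counts against 25257530 to 48075977 in the original young and nephritic libraries. A term for repeat and remission libraries was estimated from 4 mice sequenced again. With it 2 of the 7 genes were called against young mice (14.3% of all genes), Asl (-0.67 ± 0.22, adjusted p = 0.0329) and Odc1 (-0.40 ± 0.13, adjusted p = 0.0366), with Sat1 at -0.13 (adjusted p = 0.631, edgeR). Against nephritic mice 1 was called (23.8% of all genes), Sat1 (-0.53 ± 0.15, adjusted p = 0.0119, edgeR). Of these 4 repeats, 3 correlated best with their own original, but the repeat labelled RX11RU correlated at 0.997 with mouse RX11LU and at 0.985 with its own original, 17th of 65. The proximal tubule sum in remission ran from 12258 to 19260 CPM and the leukocyte sum from 185 to 1414 CPM. Of the proximal tubule markers 3 rose and 1 fell against nephritic mice, and of the injury markers 5 of 7 fell. The part of tissue makeup in these values was not tested.

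ZT0 and ZT12 were compared within each group. None of the 21 differences was called by edgeR, DESeq2 or limma, where 3.66% of genes were called in young, 3.52% in nephritic and 0.0475% in remission mice. Without s9 the remission share was 0.493%, and without RX11RU and s9 the nephritic share was 1.22%, with none of the 21 called either way. By edgeR 3 had an unadjusted p under 0.05, Gatm in young mice (0.92 ± 0.33 log2 units higher at ZT0), Gatm in nephritic mice (0.83 ± 0.35) and Odc1 in nephritic mice (0.32 ± 0.12), which was called without nephritic ZT12 mouse RX10RL (adjusted p = 0.0272). With the young mice fitted alone Gatm was called (0.90 ± 0.12, adjusted p = 6.45e-05) and so was Gamt (-0.36 ± 0.12, adjusted p = 0.0497, edgeR). In that fit 16.6% of 15504 genes were called. The fit of all groups shares 1 estimate of the spread between them. In young mice Gatm did not overlap between the times, with 1262 to 1976 CPM at ZT0 and 493 to 1061 CPM at ZT12. The differences between groups in these contrasts were not called for any of the 7 either (0.0772% of genes for nephritic against young mice and 0% for remission against nephritic mice). For nephritic against young mice 1 had an unadjusted p under 0.05, Gamt, with a contrast 0.84 ± 0.37 log2 units higher.

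Among the 27 nephritic mice the members followed Lcn2, a gene that injured tubules switch on and that ran from 4.79 through 73.1 to 702 CPM. Of the 7 genes, 6 had a slope on log2 Lcn2 that passed (47.9% of all genes did, 23.6% falling and 24.3% rising), 4 falling and 2 rising. Per doubling of Lcn2, Gatm fell by 0.25 ± 0.06 log2 units (adjusted p = 0.000802), Gamt fell by 0.24 ± 0.03 (adjusted p = 1.62e-06), Asl fell by 0.15 ± 0.03 (adjusted p = 8.83e-05) and Odc1 fell by 0.06 ± 0.02 (adjusted p = 0.00995, edgeR). Sat1 rose by 0.11 ± 0.01 (adjusted p = 4.06e-07) and Srm by 0.04 ± 0.02 (adjusted p = 0.0359, edgeR). Arg2 had a slope of 0.11 ± 0.04 (adjusted p = 0.0504), which passed when any of 11 mice was left out (adjusted p from 0.0142). The Srm slope was lost on leaving out any of nephritic mice CRS6LL, RX10LU, RX12RU, RX10RL or RX8LL (adjusted p from 0.0544 to 0.143) and in Set 2 alone (adjusted p = 0.103).

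The widest gap in Lcn2, 0.86 of a range of 7.17 log2 units, set 6 mice, all above 266 CPM, apart from the other 21. It was little wider than the gap between 3.98 and 4.81 log2 CPM, so the 6 mice do not form a clearly separate cluster. The split at this gap was not planned. In those 6 mice the proximal tubule sum was 3094 to 8735 CPM, against 10458 to 19722 CPM in the 21. Median Gatm was 202 CPM in the 6 and 746 CPM in the 21. Correlations were therefore computed within each set of mice, 14 relations in all, with permutation p-values adjusted over the 14. Within the 21 mice Sat1 rose with Lcn2 (Pearson's r = 0.75, permutation p = 8e-05, adjusted 0.00112, Spearman's rho = 0.82, permutation p = 1e-05, the smallest that 100000 permutations can give). Gamt fell with Lcn2 (r = -0.65, permutation p = 0.0017, adjusted 0.0119, rho = -0.66, permutation p = 0.00135). Without the 2 mice farthest from the median of Lcn2, r was 0.68 for Sat1 and -0.73 for Gamt. For Asl r was -0.52 (permutation p = 0.0159, adjusted 0.0743) and rho -0.58 (permutation p = 0.00642, adjusted 0.03). Gatm (r = -0.33), Arg2 (0.36), Odc1 (-0.21) and Srm (-0.07) had permutation p from 0.106 to 0.762. Within the 6 mice no relation passed the adjustment. The smallest p was that of Gamt (rho = -0.94, exact permutation p = 0.0167, adjusted 0.0583, and r = -0.79, exact permutation p = 0.0597, adjusted 0.209). For Gatm, Odc1 and Srm, whose slopes passed over all 27 mice, no relation passed within either set. The slopes had time of day and sequencing set in the fit, and the correlations had neither. Each set of mice also holds fewer mice over a narrower range of Lcn2. The slopes and the correlations are therefore not like for like, and no conclusion is drawn from the difference. With the proximal tubule sum in the fit only Sat1 kept its slope (0.12 ± 0.02, adjusted p = 0.00223, edgeR), and Gatm had one of 0.02 ± 0.05. Over all genes 4.84% had a slope that passed in this fit, against 47.9% without the sum, so a lost slope sets no member apart.

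**Figure D3:**
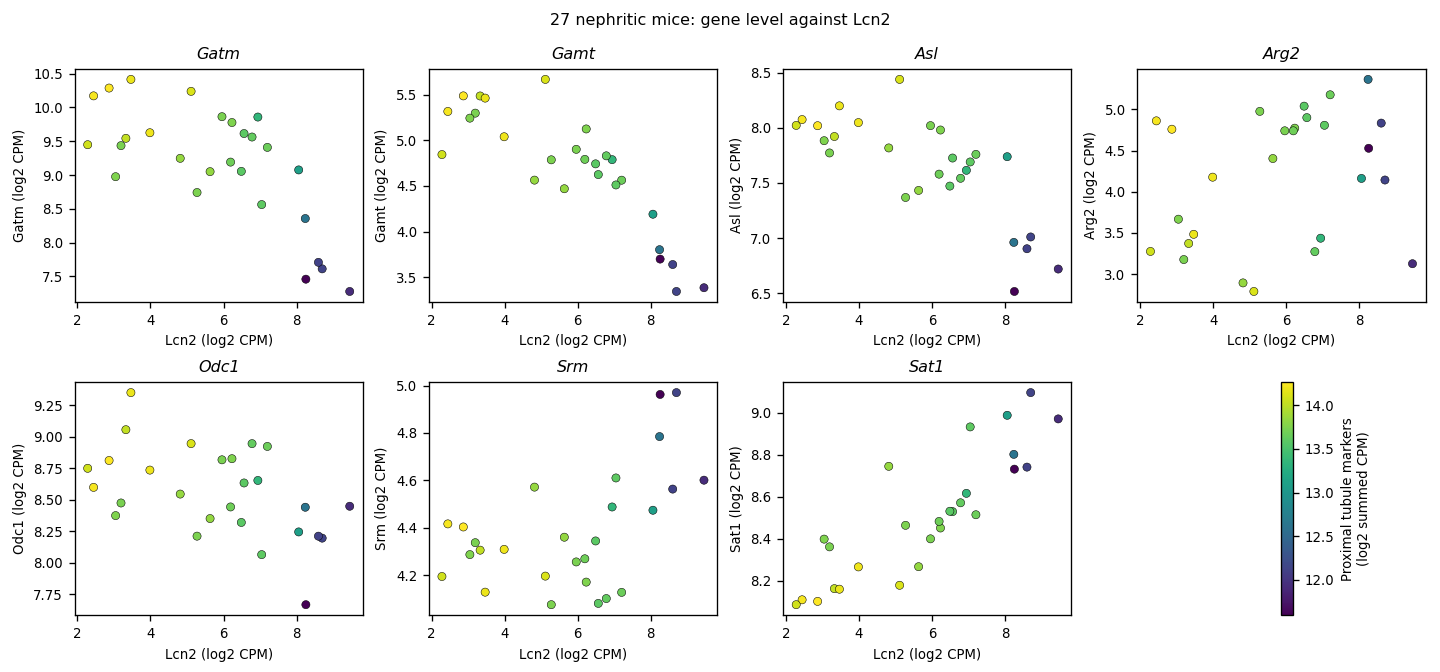
Log2 CPM of each tested gene (vertical axes) against log2 CPM of Lcn2 (horizontal axes) in the 27 nephritic mice, coloured by the log2 summed CPM of 12 proximal tubule markers. Among the 21 mice with less Lcn2, Sat1 climbs (r = 0.75) and Gamt descends (r = -0.65), and the 6 mice with the most Lcn2 have the lowest proximal tubule sums.

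The other genes of these pathways were taken from lists of 6 creatine, 24 arginine and 25 polyamine genes. In nephritic against young mice 15 of 24 tested arginine genes fell and 7 rose (median -0.43 log2 units), 3 of 4 creatine genes fell (median -0.28), and 9 of 23 polyamine genes fell and 5 rose (median -0.08). Against 62.1% over all genes, 22 of 24, 3 of 4 and 14 of 23 were called. Genes of arginine and proline use and transport in the tubule were among those that fell: Aldh4a1, which ends proline breakdown (-0.83 ± 0.12 log2 units, adjusted p = 3.7e-08), and Agxt2, which clears methylated arginines (-0.75 ± 0.11, adjusted p = 9.77e-08). Slc3a1, the heavy chain of the apical transporter for arginine and cystine, fell by 0.72 ± 0.16 (adjusted p = 0.000101, edgeR).

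In remission Slc3a1 was at 356 to 575 CPM against 62.8 to 467 CPM in nephritic mice (0.90 ± 0.31 log2 units higher, adjusted p = 0.0213, edgeR). Agxt2 stood at 38.0 to 64.4 CPM against 87.3 to 154 CPM in young mice (-1.29 ± 0.25, adjusted p = 0.000132). The creatine exporter Slc16a12 fell by 0.60 ± 0.07 log2 units in nephritic mice (adjusted p = 6.39e-11) and the creatine transporter Slc6a8 fell by 0.33 ± 0.05 (adjusted p = 9.56e-08, edgeR).

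The 5 largest rises called among the lists were those of Aoc1, Myc, Aldh18a1, Smox and Nos2. Aoc1, the diamine oxidase that destroys putrescine, was at 4.26 to 14.8 CPM in young and 8.35 to 235 CPM in nephritic mice, and rose by 2.48 ± 0.29 log2 units (adjusted p = 2.2e-10, edgeR). Myc, a transcription factor that drives Odc1 in other settings, rose by 1.44 ± 0.18 (adjusted p = 1.22e-09), while Odc1 itself fell. Aldh18a1, which makes the precursor of proline and ornithine from glutamate, rose by 1.23 ± 0.14 (adjusted p = 4.46e-11), Smox, spermine oxidase, by 0.79 ± 0.14 (adjusted p = 2.77e-06) and Nos2, inducible nitric oxide synthase, by 0.67 ± 0.18 (adjusted p = 0.00151, edgeR). In remission mice Myc ran from 6.49 to 16.9 CPM and was lower than in nephritic mice (-1.44 ± 0.33 log2 units, adjusted p = 0.00114), and its difference from young mice was 0.59 ± 0.32 (adjusted p = 0.143, edgeR). Aoc1 ran from 12.4 to 28.1 CPM, lower than in nephritic mice (-1.50 ± 0.52, adjusted p = 0.0233) and higher than in young mice (1.57 ± 0.50, adjusted p = 0.0117, edgeR). Against young mice 12 of 24 arginine genes were lower and 6 higher in remission, 6 and 4 of 23 polyamine genes, and 2 and 1 of 4 creatine genes, where 20.5% of all genes were lower and 21.1% higher.

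The largest falls of the arginine list, in the urea cycle genes Cps1 (-2.09 ± 0.72 log2 units), Otc (-1.96 ± 0.71), Arg1 (-1.51 ± 0.65) and Nags (-1.35 ± 0.51), rested on few mice. The 3 highest of the 30 young mice held 79.0% of all young Cps1 counts, where the median mouse had 101 counts and the highest 10415. For each of the 4 genes, 3 of the 4 libraries with the most counts were among the 4 with the most albumin (Alb, up to 302679 counts), a liver product looked at after these values were seen. No nephritic library passed 764 Cps1 counts, and all 8 remission libraries had 0.

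**Figure D4:**
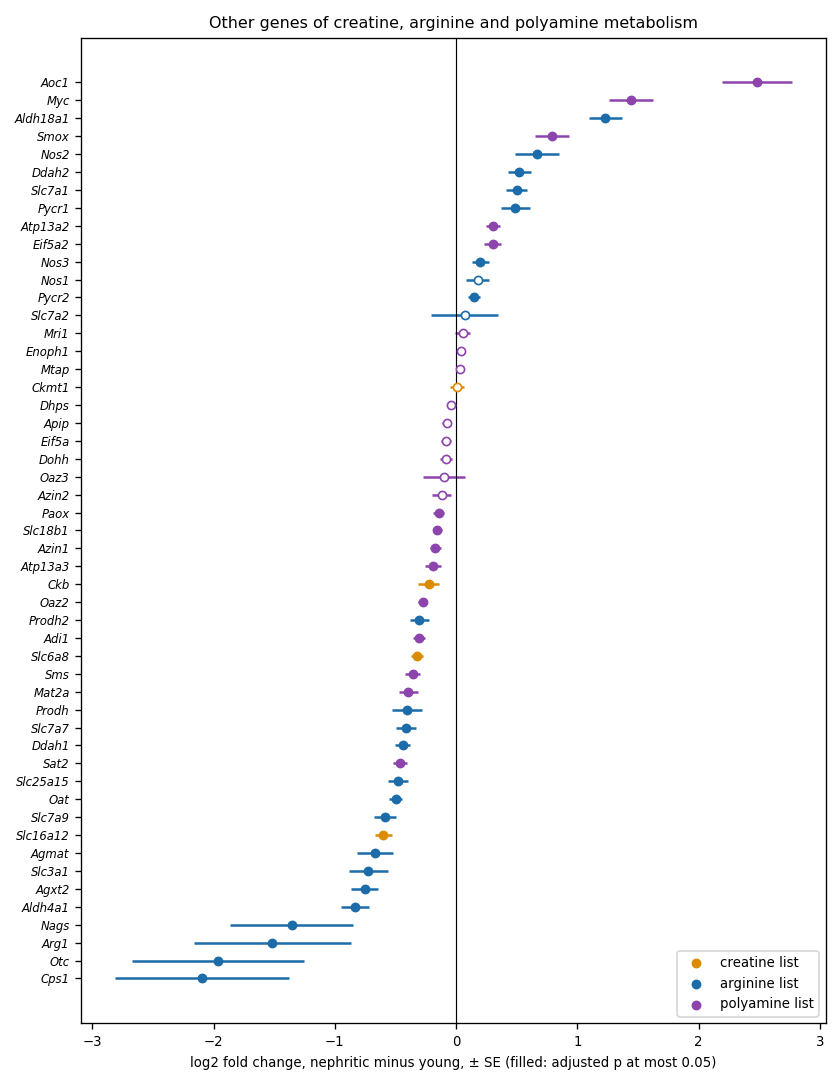
Log2 fold change ± SE, nephritic minus young mice (horizontal axis), of the 51 tested genes of the 3 lists, ordered by size and coloured by list, with filled points where the adjusted p is at most 0.05. Aoc1, Myc and Aldh18a1 are at the top, and the long bars of Cps1, Otc, Arg1 and Nags are at the bottom.

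In young kidneys 15 of 24 arginine, 12 of 23 polyamine and 3 of 4 creatine genes were called for time of day, against 39.8% of all genes. The 15 include Cps1, Otc, Arg1 and Nags, whose young counts sat mostly in 3 libraries, as given above. The smallest p values were those of Azin1, the antizyme inhibitor that shields Odc1 (amplitude 0.30 ± 0.04 log2 units, peak at ZT7.1), Paox, the oxidase of acetylated polyamines (0.29 ± 0.03, ZT10.5), Ckb, creatine kinase (0.25 ± 0.05, ZT22.5), Prodh, proline dehydrogenase (0.25 ± 0.04, ZT14.1), and Slc7a7, the basolateral arginine exporter (0.56 ± 0.08, ZT5.5). In nephritic mice 4 of 24 arginine, 6 of 23 polyamine and 0 of 4 creatine genes passed (edgeR, 21.6% of all genes), and the 4 were again Cps1, Otc, Arg1 and Nags. A rhythm that differed between young and nephritic mice was called for Paox (adjusted p = 0.00818, edgeR), whose amplitude in nephritic mice was 0.04 ± 0.05, and 5 arginine genes. These were the transporter gene Slc7a2 and again Arg1, Otc, Cps1 and Nags, for which the 3 highest young libraries held 76.5% (Nags) to 79.0% (Cps1) of the young counts.

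Across the 57 young and nephritic mice, with the set effect removed, the genes most like each member were listed from 13951 genes, as a description. All values share library, disease and time. Gatm was most like Acmsd and Slc34a3 (Pearson's r = 0.94 each) and Fam151a (0.93), Asl like Cryl1 and Ropn1l (0.94 each) and Marc2 (0.93), and Odc1 like Galk2 (0.92), Slc46a1 (0.91) and Ccdc91 (0.90). Gamt was most like Adh5, Ccs and 1600014C10Rik (0.91 each). Sat1 was most like Eif4a1 and Pvr (0.85 each) and Cd14 (0.84), Arg2 like Nhsl1 (0.88), Plod2 (0.87) and Mro (0.86), and Srm like Grwd1 (0.84), Scaf1 (0.81) and Cxxc1 (0.80). Among the members Asl followed Gamt (0.88) and Gatm followed Odc1 (0.84), while Sat1 ran opposite to Gatm (-0.81).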

How the data were processed

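The deposited files hold raw counts per gene symbol, 1 file per library. Per the labels and the study's methods the authors sequenced paired 150-base reads, aligned them to mm10 and counted unique reads with at most 2 mismatches on exons and junctions. The methods name a Burrows-Wheeler alignment and the submitters' processing notes HISAT, without a version. Genes needed 100 counts over the libraries of a fit. Counts were scaled by TMM and tested with edgeR 4.0.16 (quasi-likelihood F test, Benjamini-Hochberg over all genes, R 4.3.3), with sequencing set as a covariate. DESeq2 1.42.0 and limma 3.58.1 were alternatives. Levels are TMM-scaled CPM, and log2 CPM used a prior count of 2. SE is the log2 change over the root of F. Totals ran from 13311278 to 48075977 counts per original library. P-values measure the spread between mice of a group. Lcn2 correlations used log2 CPM and 100000 permutations, or all orders for 6 mice. The 4 repeat libraries entered 2 alternatives. Set 1 was taken from titles in the study's sample list. The edgeR fit of level in nephritic against young mice was tested on simulated counts. All 9 members were named, and of the lists the 5 largest called changes in each direction, the 5 smallest p for rhythm, and Slc16a12, Slc6a8, Slc3a1 and Agxt2, chosen after their values were seen. Members and lists were chosen with earlier results of these data known. GENCODE vM21 and RefSeq GRCm38.p6 gave positions and sequences.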

Additional observations from a re-analysis of the deposited data

Results flagged for a closer look

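Of 84 sets of 4 to 7 mice of 1 group and time (7 genes in 12 such sets), 3 held a mouse far from the others by Dixon's test, where chance gives about 1 in 20. In young mice at ZT0, ZT00 had 1976 CPM of Gatm and the next mouse 1506 CPM. In remission mice at ZT12, s10 had 478 CPM of Odc1 and the next mouse 368 CPM, and the call of Odc1 against nephritic mice was lost without it (adjusted p = 0.127, edgeR). In nephritic mice at ZT8, RX10RU had 380 CPM of Sat1 and the next mouse 290 CPM.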

How the results depend on the processing

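Counts of the 7 genes called were within 1.5 times of those given under most alternatives. For rhythm in nephritic mice, 1 was called with no set covariate (11.8% of all genes) and 0 with a 24 h cosine (2.15%), in place of 2. For a different rhythm, DESeq2 (12.5% of all genes) and Set 2 alone (9.89%) called 1 in place of 0. For the level in nephritic against young mice, 6 became 3 with the proximal tubule covariate (27.8% of all genes called). With the leukocyte covariate too 0 were called (0.748%). For remission against nephritic mice, 1 was called in place of 2 in some fits. These were Set 2 alone (41% of all genes called), the library term (23.8%) and remission and nephritic mice alone (30.9%). For remission against young mice, 7 became 4 without s9 (38.7% of all genes called) and 4 without RX11RU and s9 (38.7%). With the library term 2 were called (14.3%). For ZT0 against ZT12, 2 were called with each group fitted alone, both in young mice (16.6% of all genes there), in place of 0. For the slope on Lcn2, 1 was called with the proximal tubule covariate (4.84% of all genes), in place of 6 (47.9%). The alternatives without RX11RU and with each group fitted alone were chosen after seeing the data. The split of nephritic mice at the widest Lcn2 gap was not planned either. Where a fit adds a covariate or drops mice it has fewer degrees of freedom, and the cause of the other changes was not tested. Signs reversed for Srm in the level with the proximal tubule covariate (-0.082), for Asl (0.0026) and Srm (-0.11) in remission against nephritic mice with the library term, and for Gatm (0.024) and Srm (-0.0061) in the slope with the proximal tubule covariate, none of them called.

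Leaving out each mouse in turn gave 6 called for rhythm in young mice, 2 in nephritic mice, 0 to 1 for a different rhythm, 5 to 6 for the level in nephritic mice, 1 to 2 for remission against nephritic mice, 4 to 7 against young mice, 0 to 1 for ZT0 against ZT12 and 5 to 7 for the slope. The Srm level was lost without RX12LL, RX110, CR3LL, CR3LU, ZT120, ZT16LU or ZT20RU (adjusted p up to 0.0658), and Odc1 in remission against nephritic mice without RX10LU, RX12RU, RX8RU, s1, s4 or s10. Against young mice, Arg2 was lost without any of the 8 remission mice, without nephritic HIL5RU, RX10RL or RX11RU and without young ZT00, ZT0LU, ZT0RL, ZT0RU, CR3LL, CR3LU, ZT120, ZT12LU, ZT12RL or ZT12RU. Sat1 was lost there without remission s4, s8, s9, s10 or s12, nephritic CRS6LU or HIL5RU, or young ZT00, ZT0LU, ZT0RL, ZT0RU, CR3LL, CR3RL or ZT12RU, and Gamt without remission s1, s3, s8, s9, s12 or s14 or young ZT0RL, ZT12LU or ZT12RL. The slope of Arg2 passed without CRS60, RX10LU, RX11LL, RX12LL, RX100, RX10RU, RX12RL, RX7LU, HIL5RU, RX8RU or RX8LL. Arg2 in remission against nephritic mice passed without RX12RU (adjusted p = 0.0308). These fits held both sets, and leaving out mice was not tested in Set 2 alone. Ass1 and Amd1, at 0 to 6 counts per library, were not tested. No paired analysis was possible because the labels carry no replicate numbers shared between groups.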
